A study of Arabidopsis thaliana with 8 samples.

Results

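The genes described here are 37 nuclear loci of Arabidopsis thaliana that encode the enzymes of carbon fixation and of photorespiration. They were chosen by locus from a list: 24 loci for the small subunits of Rubisco, Rubisco activase, the enzymes of the Calvin-Benson cycle and the CP12 regulators, and 13 loci for enzymes of photorespiration. All 37 were found among the 27416 transcript models of the deposited files, and all 37 passed the filter on low counts that left 20716 genes for testing. The rule itself uses no measured value.

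The Calvin-Benson cycle fixes carbon dioxide in the chloroplast. Rubisco joins the gas to ribulose bisphosphate, the product is reduced to triose phosphate with ATP and NADPH from the light reactions, and most of the triose phosphate is turned back into ribulose bisphosphate. Rubisco also accepts oxygen, and the phosphoglycolate that this makes is recovered by photorespiration, a chain of enzymes that passes through chloroplast, peroxisome and mitochondrion. Many of the nuclear genes for both pathways are known as light-induced genes, weakly expressed in the etiolated seedlings that grow in darkness.

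RNA was sequenced from whole seedlings of the Col-0 ecotype in 8 libraries, 2 for each of 4 groups, which compare darkness with red light and wild type with mutants of phytochromes, the red and far-red light receptors of plants. Every group had sucrose at 1% in its medium, a cold period of 3 days at 4 °C, a white light period of 12 h and 5 days of darkness after it. The group called WT dark is wild type taken from that darkness. WT red is wild type, phyB a mutant of the phytochrome gene PHYB and phyAB a mutant of both PHYA and PHYB, each given 1 h of red light of 50 µmol per square metre per second. Which alleles the mutants carry is not stated in the labels, and dark-grown mutants were not analysed here, so a difference between a mutant and WT red may have been present before the light. Nothing says that the replicates of a group were separate batches of seedlings, so p-values measure the spread among libraries alone, and that spread may be technical. In whole seedlings, fewer cells of a type and less RNA per cell cannot be told apart.

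Library totals ran from 15926547 to 22116924 reads. Levels of a gene across groups are given as CPM, read rates scaled to library size by TMM (a scaling by the bulk of the genes), and levels between genes as RPKM, which also divides by the length of the model. Tests are edgeR's quasi-likelihood F test on the reads, two-sided, with Benjamini-Hochberg adjustment over all 20716 genes. A gene is called at an adjusted p below 0.05. The ± on a log2 change is the size of the change divided by the square root of its F statistic. It is implied by the test, is not a spread of the replicates, and can be smaller than counting noise alone. Replicate libraries were very alike, with a common biological coefficient of variation of 1.59%, so that changes of a few percent passed the test. For that reason the counts of the 37 genes in each comparison, and those of the other lists in the comparisons named there, are also given with an assumed coefficient of variation of 0.1. That setting is a different test. The 2 libraries of each group were summed into 1 count, and a likelihood-ratio test was run with the assumed value for that sum. It is stricter than a coefficient of variation of 0.1 for each of 2 libraries. PHYB averaged 95.6 ± 0.538 CPM in WT red, 63.3 ± 1.41 with phyB mutated and 51.7 ± 1.74 with both mutated (SD, n = 2). PHYA averaged 467 ± 5.21 CPM in WT red, 703 ± 0.347 with phyB mutated and 124 ± 0.5001 with both mutated. Transcripts of the mutated genes were lower than in WT red and still present, which checks the labels only in part. The summed level of 6 seed storage and late embryo genes, of which 5 passed the filter, was 68.4 to 68.9 CPM in phyAB and 5.26 to 9.89 CPM in the other groups, and 5 of 5 were higher in phyAB than in WT red. The summed level of 9 root genes was 95.7 to 116 CPM over all libraries. The part of either marker list in the results below was not tested.

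As a group, the 37 genes were low in darkness and high after 1 h of red light, higher still in phyB and much lower in phyAB. The 37 genes together held 0.419% ± 0.00446 of all reads in WT dark and 1.12% ± 0.00353 in WT red, against 1.396% ± 0.00147 for phyB and 0.587% ± 0.0015 for phyAB (SD, n = 2). The order WT dark, phyAB, WT red, phyB, from low to high mean CPM, was seen for 26 of the 37 genes. No other order was seen for more than 3 of them. The share of all tested genes in this order was not counted, so the 26 have no background beside them. The comparisons below share the WT dark or the WT red libraries, so they are not independent of each other.

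**Figure D1:**
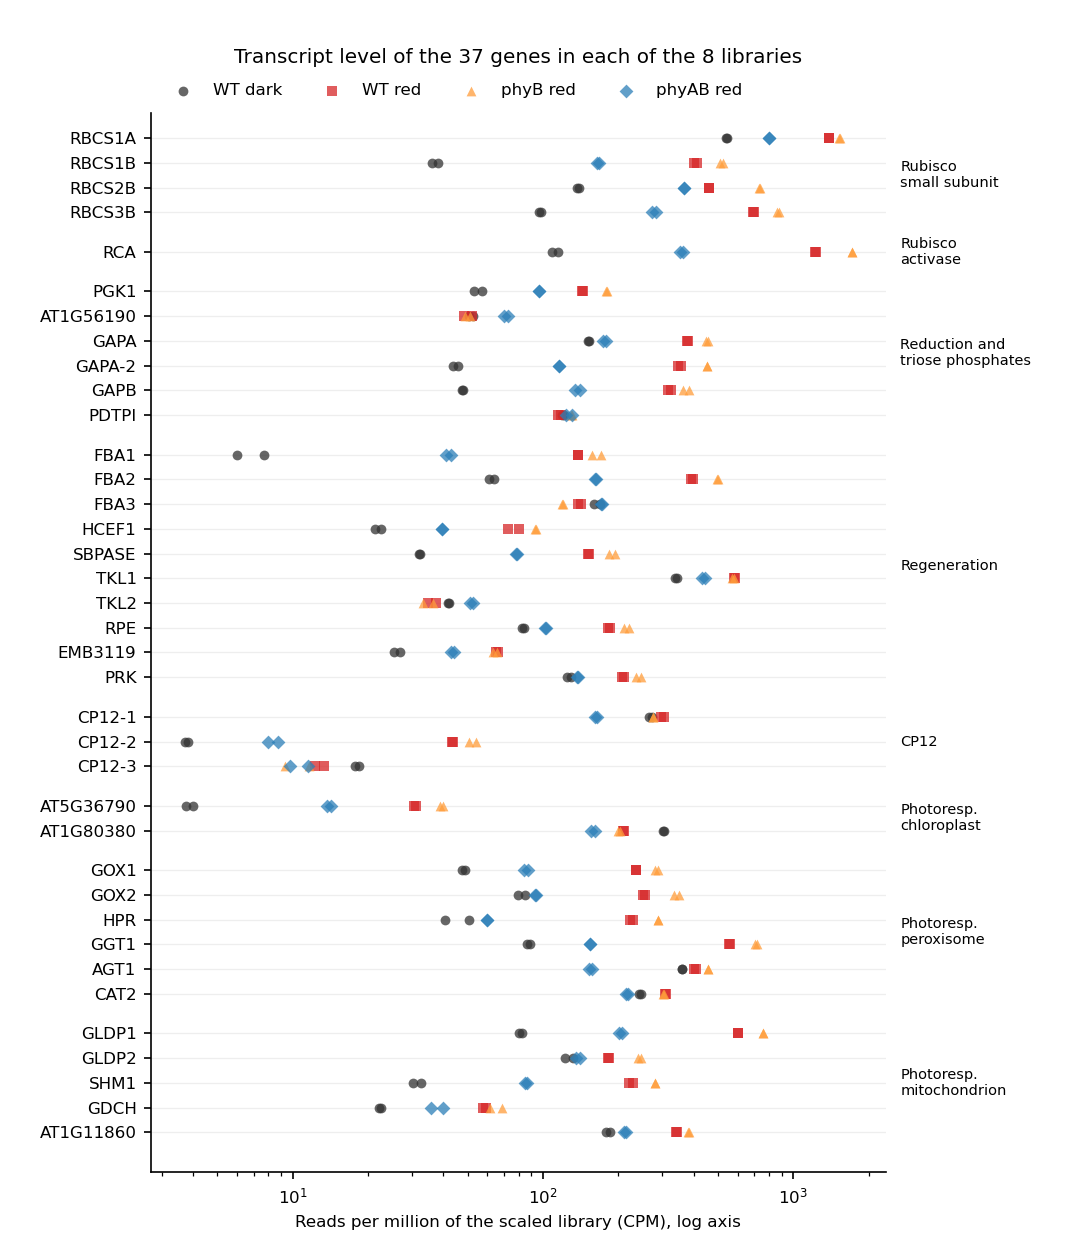
Level of each of the 37 genes in each library, as CPM on a log axis, grouped by role; each group has 2 points per gene. For 26 genes the black points (WT dark) are lowest, followed by blue (phyAB), red (WT red) and orange (phyB); AGT1, CP12-1, CAT2 and AT1G80380 are lowest in phyAB.

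In WT red against WT dark, 31 of the 37 genes rose and 4 fell, where 24.1% of all tested genes were called higher and 22.7% lower. At least 2-fold rises were seen for 24 of the 37 and falls for 0, against 7.06% and 2.67% of all genes. The median log2 change was 1.39 over the 37 genes and 0.00 over all genes tested. With an assumed coefficient of variation of 0.1, 27 were called higher and 0 lower. The calls that ended were the small rises of CP12-1, AGT1, CAT2 and GLDP2 and the falls of FBA3, TKL2, CP12-3 and AT1G80380.

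In phyB against WT red, 28 of the 37 genes were higher and 3 lower, beside 13.1% and 14.1% of all genes. None was changed 2-fold, where 1.13% of all genes were higher and 1.04% lower by that much, and the median log2 change was 0.26 over the 37 genes and 0.00 over all genes. These differences are small: with an assumed coefficient of variation of 0.1 only RBCS2B was called, and 0 genes were called lower. The libraries of the groups did not overlap for 33 of the 37 genes, nor for 60.3% of all genes tested.

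In phyAB against WT red, 32 of the 37 genes were lower and 4 higher, beside 22.7% and 22.3% of all genes. For 17 genes the difference was 2-fold or more, all of them lower, against 2.95% of all genes lower and 4.04% higher by that much. The median log2 change was -0.95 over the 37 genes and 0.00 over all genes. With an assumed coefficient of variation of 0.1, 27 were called lower and 0 higher, and the calls of RBCS2B, AT1G56190, PDTPI, FBA3, TKL1, TKL2, AT1G80380, CAT2 and GLDP2 ended. In phyAB against phyB, 32 were lower and 3 higher, beside 24.1% and 26.1% of all genes, with a median log2 change of -1.24 over the 37 genes and 0.01 over all genes. There 21 were at least 2-fold lower, and 0 higher, against 4.35% and 4.88% of all genes. With an assumed coefficient of variation of 0.1, 29 were called lower and 1 higher, TKL2, and the calls of AT1G56190, FBA3, TKL1, AT1G80380 and CAT2 ended.

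Against WT dark, the 37 genes were mostly higher in both mutants. In phyB 31 were higher and 4 lower, beside 27.5% and 27.1% of all genes, with a median log2 change of 1.71. Of these, 25 were at least 2-fold higher and 0 lower, against 8.01% and 2.93% of all genes. In phyAB 30 were higher and 5 lower, beside 27.2% and 20.9% of all genes, with a median of 0.74. Of these, 13 were at least 2-fold higher and 1 lower, against 6.23% and 1.02% of all genes. Over all genes the medians were 0.01 and 0.04. With an assumed coefficient of variation of 0.1, phyB had 28 higher and 2 lower, without PDTPI, FBA3, TKL2, AGT1 and CAT2. In phyAB 20 were then higher and 4 lower, without AT1G56190, GAPA, TKL1, TKL2, RPE, PRK, GOX2, HPR, CAT2, GLDP2 and AT1G11860.

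**Figure D2:**
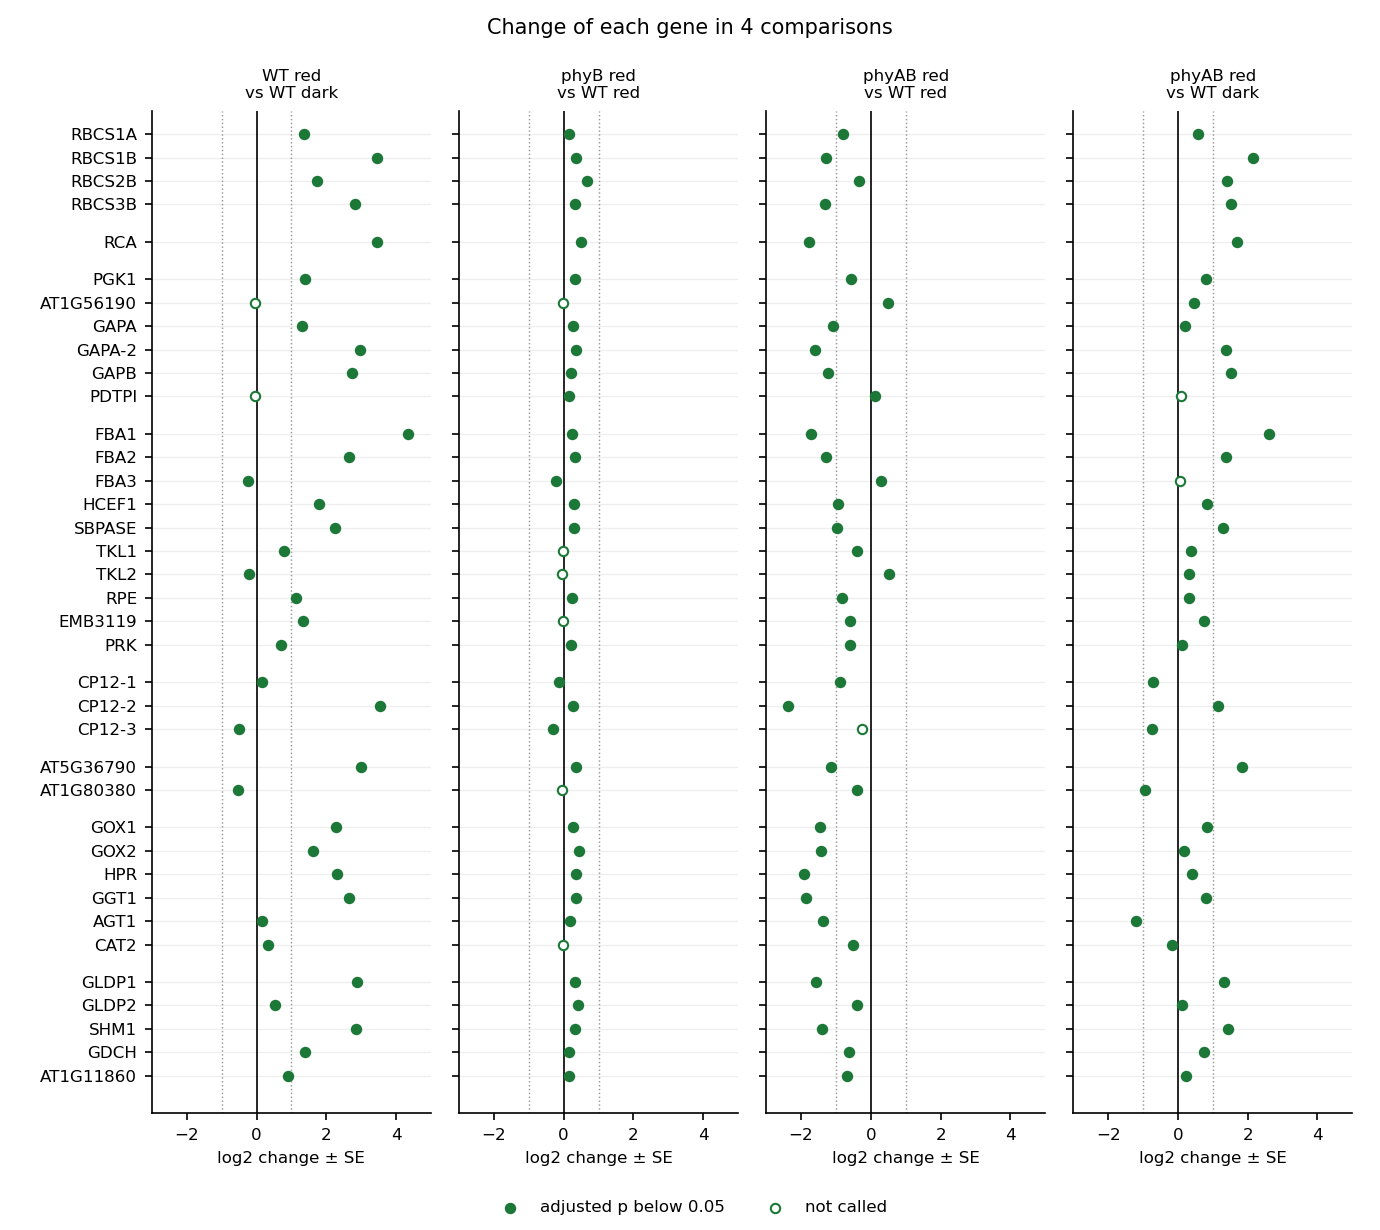
Log2 change for each of the 37 genes in 4 comparisons, from the fit to all 8 libraries. The bars, labelled SE, are the change divided by the square root of its F statistic, not a standard error from the replicates. Filled points are called at an adjusted p below 0.05 and the dotted lines mark 2-fold. FBA1, at 4.33, has the largest rise in WT red against WT dark, the points of phyB against WT red stay between -0.32 and 0.67, and CP12-2, at -2.38, is lowest in phyAB against WT red.

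Rubisco is built from a large subunit encoded in the plastid and small subunits encoded by the nuclear RBCS genes. The 4 RBCS genes all rose at least 2-fold in red light. RBCS1A (AT1G67090) stood at 538 and 542 CPM in WT dark, 1383 and 1389.6 in WT red, 1536 and 1519 in phyB and 799 and 798 in phyAB. It was the most abundant of the 37 transcripts per length in every group, at 524 ± 2.697 RPKM in WT dark and 1321 ± 4.64 RPKM in WT red (SD, n = 2), yet its rise was the smallest of the family, at 1.36 ± 0.0099 (adjusted p = 7.2e-139). RBCS1B (AT5G38430) stood at 36.1 and 38.1 CPM in WT dark, 413 and 401 in WT red, 524 and 509.9 in phyB and 164 and 168 in phyAB. The 4 groups did not overlap, and the WT red libraries lay about as far above WT dark as any gene of the 37 except FBA1 and CP12-2, with a log2 change of 3.46 ± 0.04 (adjusted p = 9.68e-118).

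RBCS3B (AT5G38410) had 96.4 and 98.1 CPM in WT dark, 699 and 687 in WT red, 863 and 873 in phyB and 282 and 272 in phyAB. Its groups did not overlap, and WT red exceeded WT dark by 2.83 ± 0.03 (adjusted p = 5.75e-126). RBCS2B (AT5G38420) had 137 and 139 CPM in WT dark, 462 and 459 in WT red, 735 and 732 in phyB and 365 and 365 in phyAB. Here phyB lay far above WT red and phyAB only a little below it, and the rise in red light was 1.74 ± 0.03 (adjusted p = 6.6e-99). The log2 difference of phyB from WT red was 0.67 ± 0.01 (adjusted p = 2.62e-80), the largest of the 37 genes in that comparison, against 0.14 ± 0.0049, 0.34 ± 0.02 and 0.32 ± 0.01 for RBCS1A, RBCS1B and RBCS3B. The log2 difference of phyAB from WT red was -0.33 ± 0.02 (adjusted p = 9.59e-33) for RBCS2B, a call that ended with the assumed coefficient of variation of 0.1, and -0.80 ± 0.0077, -1.30 ± 0.03 and -1.32 ± 0.02 for the others.

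The make-up of the RBCS pool shifted with these changes. RBCS1A took 66.5% ± 0.242 of the family's reads in WT dark and 47.05% ± 0.377 in WT red, and its share was 41.9% ± 0.129 in phyB and 49.7% ± 0.125 in phyAB (SD, n = 2). RBCS1B took 4.57% ± 0.128, 13.8% ± 0.213, 14.2% ± 0.215 and 10.3% ± 0.216 in the same order of groups. RBCS3B took 11.97% ± 0.0297, 23.5% ± 0.167, 23.8% ± 0.309 and 17.2% ± 0.3904. The red-lit wild type thus had a smaller part of RBCS1A and larger parts of RBCS1B and RBCS3B than the dark one. RBCS2B took 16.98% ± 0.0848, 15.6% ± 0.00333, 20.1% ± 0.0352 and 22.7% ± 0.0495, with its lowest share in WT red and its highest in phyAB. The shares here and in the families below are descriptions and were not tested.

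The RBCS copies are alike enough to share reads. RBCS1B, RBCS2B and RBCS3B lie side by side on the minus strand of chromosome 5, and RBCS1A lies on chromosome 1. The coding sequences of RBCS1B and RBCS2B were 97.3% identical, those of RBCS1B and RBCS3B 94.1% and those of RBCS2B and RBCS3B 94.3%, while RBCS1A was 87.7% to 90.1% identical to the others. Of all stretches of 50 bases in the coding sequence, 3.6% in RBCS1A, 51.9% in RBCS1B, 38.0% in RBCS2B and 40.6% in RBCS3B were found without change in another RBCS gene. How the authors' counting divided reads from such stretches is not stated in the labels, so the split among the copies on chromosome 5 is uncertain, and RBCS1A is the copy least touched by it. The first 90 coding bases show this likeness. They are given from the start codon, from RefSeq's annotation of assembly TAIR10.1, with capitals at the 19 columns where the copies are not all the same.
RBCS1A: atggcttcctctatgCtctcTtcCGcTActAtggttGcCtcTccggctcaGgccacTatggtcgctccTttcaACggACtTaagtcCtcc
RBCS1B: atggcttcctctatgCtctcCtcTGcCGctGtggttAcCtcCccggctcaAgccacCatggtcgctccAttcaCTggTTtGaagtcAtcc
RBCS2B: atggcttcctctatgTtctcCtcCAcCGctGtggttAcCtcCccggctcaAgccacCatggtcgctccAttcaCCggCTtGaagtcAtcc
RBCS3B: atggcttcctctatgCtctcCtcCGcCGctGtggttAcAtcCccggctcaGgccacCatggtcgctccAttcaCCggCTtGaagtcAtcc

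RCA (AT2G39730) encodes Rubisco activase, which removes inhibitory sugar phosphates from Rubisco. It had 109 and 115 CPM in WT dark, 1227 and 1220.2 in WT red, 1709 and 1719.7 in phyB and 354 and 363 in phyAB. The groups did not overlap. The log2 changes were 3.45 ± 0.02 (adjusted p = 5.99e-152) for WT red against WT dark, 0.49 ± 0.0045 (adjusted p = 5.43e-125) for phyB against WT red and -1.77 ± 0.01 (adjusted p = 2.75e-138) for phyAB against WT red, of which the difference of phyB was not called with an assumed coefficient of variation of 0.1. Relative to the summed RBCS genes, RCA rose too: the ratio of RCA to the RBCS sum, in RPKM, was 0.0734 ± 0.00195 in WT dark and 0.216 ± 0.000227 in WT red, with 0.243 ± 0.00228 in phyB and 0.116 ± 0.00247 for phyAB (SD, n = 2).

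Promoters of RBCS and RCA genes are a classic place to look for light-response elements, and 3 of these were searched in the 250 bases before the transcript start of 36 of the genes, on both strands. The G-box (CACGTG) is bound by bZIP and bHLH factors, among them HY5 and the PIFs, the PBE-box (CACATG) by PIFs, and the I-box (GATAAG) is known from RBCS promoters. The start was that of the annotated TAIR10.1 transcript closest in length to the authors' model. Of 24194 models with a length and a locus, 5039 matched an annotated transcript exactly in length. Many of the 36 windows overlap exons of another annotated transcript of the same gene. A G-box was found in 8 of the 36 windows and in 6.9% of 26710 such windows over the genome, an I-box in 9 of 36 against 12.4%, and a PBE-box in 3 of 36 against 10.8%. With the outermost annotated start of each gene, a choice added after seeing the data, the counts for G-box, I-box and PBE-box were 5, 6 and 2 of 36, against 6.6%, 12.3% and 11.1% of all windows. RBCS1A, RBCS2B and RBCS3B are among the genes with a G-box, and every RBCS gene is among those with an I-box. These are related copies, so their windows are not independent of each other. A match of letters is no evidence that a factor binds there.

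The 8 G-boxes are printed with 12 bases on either side in the gene's own direction, from RefSeq's TAIR10.1 sequence, because they are the element found in members of every branch: Rubisco, activase, the cycle and photorespiration. Capitals mark the G-box.
RBCS1A, chr1:25049491-25049520, minus strand: ggaattatcttcCACGTGgcattattccag
RBCS2B, chr5:15382177-15382206, minus strand: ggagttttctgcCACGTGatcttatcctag
RBCS3B, chr5:15378506-15378535, minus strand: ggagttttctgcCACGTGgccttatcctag
RCA, chr2:16573579-16573608, minus strand: ataaacatattcCACGTGgaccaatcaaaa
FBA1, chr2:9130296-9130325, minus strand: attatcatcatcCACGTGgcaaatcctcgt
HCEF1, chr3:20016803-20016832, plus strand: taagagcaaagcCACGTGtcataacacaag
PRK, chr1:11532014-11532043, plus strand: attagaatctccCACGTGtcaattcaaata
GLDP1, chr4:15931438-15931467, minus strand: ttagatgcgataCACGTGgaatctgcaact
For RBCS1A, RBCS3B, RCA and FBA1 the site lies upstream of the start used and inside the span of a longer annotated transcript. The other 4 sites lie upstream of every annotated transcript of their gene. Of the 8 genes with a G-box, 7 rose at least 2-fold in WT red, with log2 changes from 0.71 to 4.33, and of the 28 without one, 16 did, from -0.53 to 3.53. In phyAB against WT red, 4 of the 8 and 12 of the 28 were at least 2-fold lower, with medians of -1.13 and -0.86. Of all genes tested, 7.06% rose at least 2-fold in WT red against WT dark and 2.95% were at least 2-fold lower in phyAB against WT red. No difference between genes with and without a G-box was tested. RBCS1B, which rose most among the RBCS genes, had none in its window.

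All 4 RBCS windows held I-boxes, and the copy nearest the start is printed for each, with the I-box in capitals. In RBCS1A, RBCS1B and RBCS3B this copy lies inside the span of a longer annotated transcript. That of RBCS2B lies upstream of every annotated transcript of the gene. The 12 letters after it are the same in RBCS1B, RBCS2B and RBCS3B and differ at 1 position in RBCS1A.
RBCS1A, chr1:25049462-25049491, minus strand: gcggttcaagccGATAAGggtctcaacacc
RBCS1B, chr5:15385303-15385332, minus strand: aaagaaagataaGATAAGggtgtcaacacc
RBCS2B, chr5:15382148-15382177, minus strand: gtggtccaaatcGATAAGggtgtcaacacc
RBCS3B, chr5:15378477-15378506, minus strand: gtggtgcgtaccGATAAGggtgtcaacacc
The whole RBCS2B window, chr5:15382072-15382321 on the minus strand, is shown because it holds the elements together, with its G-box and 3 I-boxes in capitals, 1 of the I-boxes on the opposite strand.
RBCS2B: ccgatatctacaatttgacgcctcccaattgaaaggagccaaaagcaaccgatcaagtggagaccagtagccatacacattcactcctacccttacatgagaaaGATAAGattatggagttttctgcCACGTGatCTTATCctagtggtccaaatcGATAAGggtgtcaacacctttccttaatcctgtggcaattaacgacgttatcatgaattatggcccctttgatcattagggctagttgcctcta

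**Figure D3:**
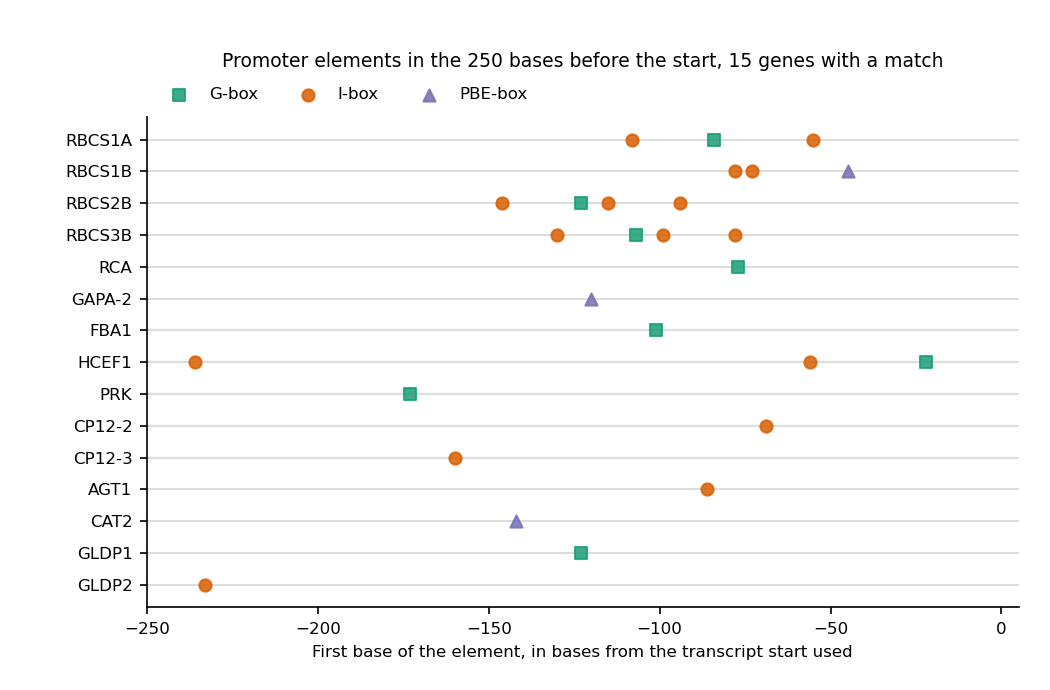
Place of each G-box, I-box and PBE-box in the 250 bases before the transcript start used, for the 15 of 36 genes with at least 1 match; the horizontal axis is the distance of the element's first base from the start. In RBCS1A, RBCS2B and RBCS3B a G-box lies between I-boxes, 84, 123 and 107 bases before the start.

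The reduction step turns phosphoglycerate into triose phosphate. The subunits of plastid glyceraldehyde-3-phosphate dehydrogenase moved together. GAPA-2 (AT1G12900) had 43.9 and 45.9 CPM in WT dark, 356 and 346 in WT red, 450.5 and 453 in phyB and 116 and 115 in phyAB. GAPB (AT1G42970) had 47.4 and 48.2 CPM in WT dark, 324 and 317 in WT red, 383 and 364 in phyB and 135 and 141 in phyAB. GAPA (AT3G26650) had 153 and 152 CPM in WT dark, 378 and 375 in WT red, 448 and 456 in phyB and 175 and 178 in phyAB. In all 3 genes the groups did not overlap and ran from WT dark through phyAB and WT red to phyB, but GAPA in phyAB was close to its dark level. WT red exceeded WT dark by 2.97 ± 0.04 (adjusted p = 3.28e-111) for GAPA-2, 2.75 ± 0.04 (adjusted p = 4.98e-106) for GAPB and 1.31 ± 0.03 (adjusted p = 1.3e-80) for GAPA on the log2 scale. GAPA and GAPA-2 encode the same subunit, and GAPA-2 made up 23.3 ± 0.612 percent of their summed RPKM in WT dark and 48.9 ± 0.337 in WT red, with 50.7 ± 0.207 in phyB and 40.3 ± 0.475 for phyAB (SD, n = 2). The summed A subunits were 4.77 ± 0.0283 times GAPB in WT dark and 2.65 ± 0.00276 times in WT red, in RPKM.

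Phosphoglycerate kinase, the enzyme before it, has 2 loci in the list that behaved differently. PGK1 (AT3G12780) had 52.9 and 57.2 CPM in WT dark, 144 and 144 in WT red, 180.4 and 179 in phyB and 96.9 and 96.3 in phyAB. AT1G56190, annotated as a phosphoglycerate kinase family protein, had 52.6 and 50.6 CPM in WT dark, 51.9 and 48.5 in WT red, 49.02 and 50.99 in phyB and 72.3 and 69.9 in phyAB. The first rose in red light, and the second overlapped between WT dark, WT red and phyB and was highest in phyAB. The log2 change of WT red against WT dark was 1.39 ± 0.04 (adjusted p = 2.27e-64) for PGK1 and -0.04 ± 0.05 (adjusted p = 0.619) for AT1G56190, and that of phyAB against WT red was -0.58 ± 0.04 (adjusted p = 3.46e-30) and 0.50 ± 0.05 (adjusted p = 5.36e-16). The latter difference was not called with an assumed coefficient of variation of 0.1. PDTPI (AT2G21170), the plastid triose phosphate isomerase changed little, from 118 and 115 CPM in WT red to 131 and 129.8 in phyB. Its log2 change in red light was -0.04 ± 0.04 (adjusted p = 0.355).

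Regeneration starts with aldolase, and here the plastid aldolase genes went in opposite directions. FBA1 (AT2G21330) had 7.66 and 6.01 CPM in WT dark, 138 and 139 in WT red, 157 and 170.05 in phyB and 41.1 and 43.1 in phyAB. Its rise in WT red, 4.33 ± 0.07 (adjusted p = 9.59e-98), was the largest of the 37 genes, and phyAB kept a level 2.61 ± 0.09 above WT dark on the log2 scale. FBA2 (AT4G38970) had 63.97 and 61.2 CPM in WT dark, 399 and 391 in WT red, 496 and 501 in phyB and 162 and 162 in phyAB. FBA3 (AT2G01140) had 159.5 and 168 CPM in WT dark, 142 and 138 in WT red, 120.3 and 119 in phyB and 170.4 and 172 in phyAB. FBA2 followed the common order, with a rise of 2.66 ± 0.03 (adjusted p = 1.17e-109), whereas FBA3 was lowest in phyB and highest in phyAB. The log2 change of FBA3 was -0.23 ± 0.03 (adjusted p = 1.28e-09) in WT red against WT dark and 0.29 ± 0.03 (adjusted p = 5.88e-14) in phyAB against WT red, both lost with an assumed coefficient of variation of 0.1. FBA3 made up 70.1 ± 1.74 percent of the summed RPKM of the 3 genes in WT dark and 20.7 ± 0.185 in WT red, with 15.2 ± 0.367 in phyB and 45.5 ± 0.0649 for phyAB (SD, n = 2). FBA2 made up 27.1 ± 1.21 percent in WT dark and 59.1 ± 0.143 in WT red, so that the leading plastid aldolase transcript was FBA3 in darkness and FBA2 in the light. In phyAB the shares of FBA2 and FBA3 were close, at 43.5 ± 0.384 and 45.5 ± 0.0649 percent.

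The bisphosphatases, which make regeneration one-way, both rose. SBPASE (AT3G55800), sedoheptulose-1,7-bisphosphatase, had 32.01 and 32.3 CPM in WT dark, 151 and 153 in WT red, 193 and 184 in phyB and 78.7 and 77.9 in phyAB. HCEF1 (AT3G54050), the plastid fructose-1,6-bisphosphatase, had 22.5 and 21.4 CPM in WT dark, 72.7 and 80.6 in WT red, 92.9 and 94.1 in phyB and 39.5 and 39.7 in phyAB. Neither gene's groups overlapped. WT red exceeded WT dark by 2.24 ± 0.05 (adjusted p = 1.33e-83) for SBPASE and 1.80 ± 0.06 (adjusted p = 3.28e-58) for HCEF1, and the log2 differences of phyAB from WT red were -0.96 ± 0.04 and -0.95 ± 0.05.

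The later regeneration steps changed less. RPE (AT5G61410), ribulose-5-phosphate epimerase, rose by 1.14 ± 0.04 (adjusted p = 1.83e-61) from 83.7 and 82.2 CPM to 185 and 181 CPM. EMB3119 (AT3G04790), ribose-5-phosphate isomerase, rose by 1.33 ± 0.06 (adjusted p = 2.75e-44) from 25.4 and 26.8 CPM to 66.2 and 64.9 CPM. PRK (AT1G32060), phosphoribulokinase, which makes the acceptor of carbon dioxide, rose by 0.71 ± 0.03 (adjusted p = 2.62e-44) from 124 and 129.9 CPM to 209.9 and 207 CPM. In phyAB, PRK stood at 137 and 138 CPM, only 0.11 ± 0.03 (adjusted p = 0.00323) above WT dark on the log2 scale, and that call was lost without WT dark replicate 1, with the value then at 0.04 (adjusted p = 0.424), with DESeq2 (0.0675) and with only the 2 groups compared in the fit (0.063). RPE in phyAB was 0.31 ± 0.04 (adjusted p = 1.15e-11) above WT dark.

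Transketolase has 2 loci in the list. TKL1 (AT3G60750) had 336 and 345 CPM in WT dark, 583 and 581 in WT red, 572 and 582 in phyB and 442 and 434 in phyAB. TKL2 (AT2G45290) had 41.6 and 42.3 CPM in WT dark, 34.9 and 37.6 in WT red, 33.1 and 36.6 in phyB and 51.1 and 52.8 in phyAB. TKL1 was high after red light in wild type and phyB alike, and TKL2 was highest in phyAB, above its dark level. TKL1 changed by 0.77 ± 0.02 (adjusted p = 1.09e-72) in red light and by -0.01 ± 0.02 (adjusted p = 0.76) in phyB against WT red, the latter not called. TKL2 fell slightly in red light, with a log2 change of -0.22 ± 0.06 (adjusted p = 0.0026), a call lost without WT red replicate 1, where the value was -0.16 (adjusted p = 0.105). In phyAB it was 0.52 ± 0.06 (adjusted p = 3.14e-13) above WT red. TKL1 supplied 88.1 ± 0.07402 percent of the RPKM of the pair in WT dark and 93.6 ± 0.319 percent in WT red.

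CP12 proteins are small regulators that bind glyceraldehyde-3-phosphate dehydrogenase and phosphoribulokinase and hold them inactive in darkness. The 3 CP12 genes each had their own pattern. CP12-2 (AT3G62410) had 3.81 and 3.71 CPM in WT dark, 43.6 and 43.4 in WT red, 50.6 and 54.2 in phyB and 8.72 and 7.95 in phyAB. CP12-1 (AT2G47400) had 265 and 272 CPM in WT dark, 296 and 305 in WT red, 276 and 274 in phyB and 164 and 161 in phyAB. CP12-3 (AT1G76560) had 17.8 and 18.4 CPM in WT dark, 13.3 and 12.4 in WT red, 11.7 and 9.31 in phyB and 11.5 and 9.78 in phyAB. CP12-2 rose steeply in red light and fell back furthest of all 37 genes in phyAB, CP12-1 was similar in the other groups and low in phyAB, and CP12-3 was highest in WT dark. The log2 changes of CP12-2 were 3.53 ± 0.10 (adjusted p = 1.7e-64) in WT red against WT dark and -2.38 ± 0.09 (adjusted p = 2.44e-53) in phyAB against WT red. CP12-1 changed by 0.16 ± 0.03 (adjusted p = 8.04e-08) in red light and lay -0.72 ± 0.03 (adjusted p = 1.25e-49) from WT dark in phyAB. CP12-3 fell by 0.49 ± 0.11 on the log2 scale in red light (adjusted p = 3.78e-05). Its difference of -0.32 ± 0.12 (adjusted p = 0.034) in phyB against WT red was lost with DESeq2 (adjusted p = 0.196), without WT red replicate 1 (value -0.26, 0.249) and without phyB replicate 2 (value -0.14, 0.563). Per length, CP12-1 was the main CP12 transcript in every group, at 92.7 ± 0.0108 percent of the CP12 sum in WT dark and 82.2 ± 0.247 percent in phyB, where CP12-2 reached 14.7 ± 0.729 percent.

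**Figure D4:**
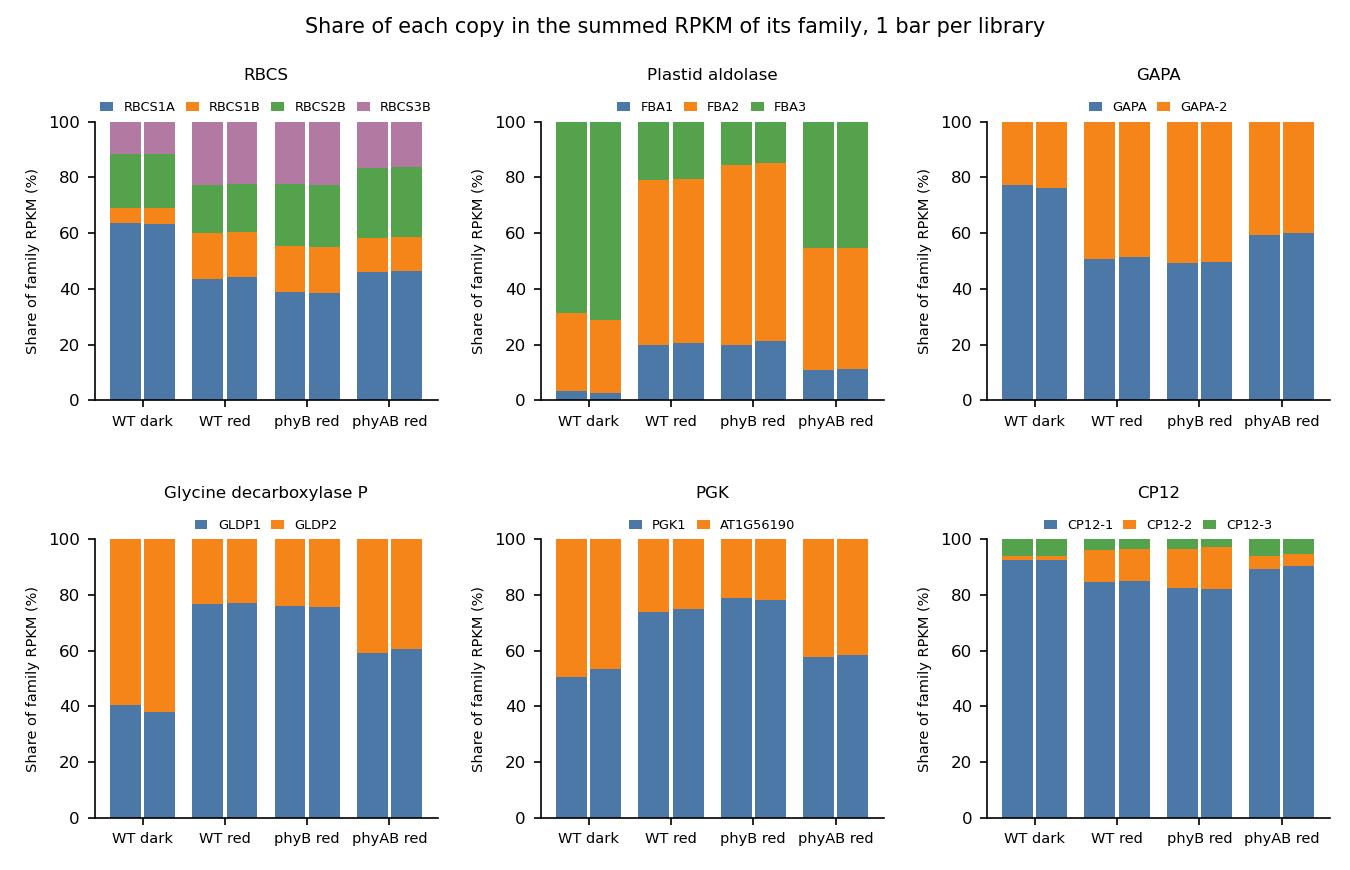
Share of each copy in the summed RPKM of its family, as stacked bars from 0 to 100% with 1 bar per library, 2 for each group. Between WT dark and WT red, RBCS1B and RBCS3B gain on RBCS1A, GAPA-2 on GAPA, GLDP1 on GLDP2, PGK1 on AT1G56190 and CP12-2 on CP12-1, and FBA3 goes from 70.1% to 20.7%; phyAB lies between the wild-type groups in every one of these shares.

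Photorespiration begins in the chloroplast with phosphoglycolate phosphatase. AT5G36790, annotated as a HAD-like hydrolase, has a coding sequence identical to that of PGLP1 (AT5G36700), so reads from the pair cannot be told apart in the coding part. AT5G36790 had 4.01 and 3.76 CPM in WT dark, 30.6 and 31.2 in WT red, 38.9 and 39.9 in phyB and 14.3 and 13.7 in phyAB. PGLP1 had 3.26 and 4.51 CPM in WT dark, 29.6 and 31.9 in WT red, 40.8 and 44.1 in phyB and 14.6 and 14.3 in phyAB. The pair ran in the same order of groups, which is not a second observation where reads are shared. The groups of AT5G36790 did not overlap. Its log2 change in red light was 2.99 ± 0.11 (adjusted p = 6.88e-53). AT1G80380, annotated as a P-loop nucleoside triphosphate hydrolase and listed among the enzymes of the chloroplast steps, went the other way, with 302 and 305 CPM in WT dark, 209.6 and 211 in WT red, 204 and 199.7 in phyB and 161 and 156 in phyAB. It was the only photorespiration gene of the list that fell in red light, by 0.53 ± 0.03 on the log2 scale (adjusted p = 2.23e-38), and it was lower still in phyAB. The fall was not called with an assumed coefficient of variation of 0.1.

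In the peroxisome, glycolate oxidase makes glyoxylate and hydrogen peroxide. GOX1 (AT3G14420) and GOX2 (AT3G14415) are neighbours on chromosome 3 with coding sequences 90.9% identical. GOX1 had 48.99 and 47.5 CPM in WT dark, 235 and 235 in WT red, 287 and 279.5 in phyB and 83.8 and 87.3 in phyAB. GOX2 had 79.9 and 85.1 CPM in WT dark, 255 and 251 in WT red, 334 and 349 in phyB and 93.3 and 93.9 in phyAB. Both rose in WT red and phyB and returned most of the way to the dark level in phyAB. Red light changed GOX1 by 2.28 ± 0.04 (adjusted p = 3.55e-94) and GOX2 by 1.62 ± 0.03 (adjusted p = 5.86e-82). In phyAB GOX2 was 0.18 ± 0.04 (adjusted p = 4e-05) above WT dark, which was lost without WT dark replicate 1 (value 0.10, adjusted p = 0.0975).

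GGT1 (AT1G23310), glutamate:glyoxylate aminotransferase, which makes glycine, had 86.8 and 89.1 CPM in WT dark, 552 and 558 in WT red, 702 and 714 in phyB and 155 and 154 in phyAB. HPR (AT1G68010), hydroxypyruvate reductase, which acts near the end of the pathway, had 40.6 and 50.5 CPM in WT dark, 223 and 229.8 in WT red, 287 and 288 in phyB and 59.7 and 59.9 in phyAB. These genes had the steepest peroxisomal response, with non-overlapping groups in the common order. The rise of HPR was close to the 2.28 of GOX1, and its WT dark libraries lay further apart than its ± shows. WT red exceeded WT dark by 2.66 ± 0.03 (adjusted p = 3.96e-119) for GGT1 and 2.31 ± 0.04 (adjusted p = 5.08e-45) for HPR, and the log2 differences of phyAB from WT red were -1.85 ± 0.02 (adjusted p = 1.26e-106) and -1.92 ± 0.04 (adjusted p = 5.56e-42).

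AGT1 (AT2G13360), serine:glyoxylate aminotransferase, and CAT2 (AT4G35090), the catalase that removes peroxide from glycolate oxidation, behaved otherwise. AGT1 had 359 and 361 CPM in WT dark, 407 and 399.9 in WT red, 456 and 456 in phyB and 157 and 153 in phyAB. CAT2 had 246 and 243 CPM in WT dark, 309 and 309 in WT red, 302 and 305 in phyB and 215 and 219 in phyAB. Both were well expressed in darkness and lowest in phyAB, below the dark wild type. AGT1 rose by 0.17 ± 0.02 (adjusted p = 1.77e-09) in red light but in phyAB was -1.21 ± 0.03 (adjusted p = 7.73e-77) against WT dark, the only gene of the 37 at least 2-fold below darkness. CAT2 rose by 0.34 ± 0.03 (adjusted p = 3.19e-23) and in phyAB was -0.17 ± 0.03 (adjusted p = 3.57e-08) against WT dark, where the call was lost with an assumed coefficient of variation of 0.1. In darkness AGT1 was already 233 ± 0.382 RPKM, the third highest level of the 37 genes per length, after RBCS1A and CP12-1 at 457 ± 8.46 RPKM.

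In the mitochondrion, glycine decarboxylase and serine hydroxymethyltransferase turn glycine into serine. All 5 mitochondrial genes rose in red light and all 5 were lower in phyAB than in WT red. GLDP1 (AT4G33010), a P-protein of glycine decarboxylase, had 82.5 and 80.3 CPM in WT dark, 600.05 and 602 in WT red, 756 and 757 in phyB and 202 and 206 in phyAB. GLDP2 (AT2G26080), the other P-protein, had 123 and 132 CPM in WT dark, 184 and 181 in WT red, 239 and 246 in phyB and 140.4 and 136 in phyAB. GLDP1 changed over a wide range and GLDP2 over a narrow one, both in the common order of groups. The log2 changes were 2.88 ± 0.03 (adjusted p = 6.68e-124) and 0.52 ± 0.03 (adjusted p = 2.24e-30), the second lost with an assumed coefficient of variation of 0.1. GLDP1 made up 39.2 ± 1.73 percent of the RPKM of the pair in WT dark and 76.8 ± 0.218 in WT red, with 75.9 ± 0.353 in phyB and 59.8 ± 0.9295 for phyAB (SD, n = 2). In phyAB GLDP2 differed from WT dark by 0.12 ± 0.03 (adjusted p = 0.00203), a call lost without WT dark replicate 1 (value 0.03, adjusted p = 0.645), without phyAB replicate 1 (0.09, 0.0789) and with DESeq2 (0.10, 0.0617).

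SHM1 (AT4G37930), serine hydroxymethyltransferase, had 30.3 and 32.5 CPM in WT dark, 229 and 219.99 in WT red, 279.9 and 281 in phyB and 84.5 and 86.6 in phyAB. GDCH (AT2G35370), the H-protein of glycine decarboxylase, had 22.1 and 22.6 CPM in WT dark, 57.6 and 59.4 in WT red, 61.7 and 68.8 in phyB and 35.8 and 39.95 in phyAB. AT1G11860, annotated as a glycine cleavage T-protein family member, had 185 and 179 CPM in WT dark, 341 and 343 in WT red, 382 and 381 in phyB and 211 and 215 in phyAB. All 3 followed the common order from WT dark to phyB, SHM1 with the widest range. Red light raised SHM1 by 2.84 ± 0.04 (adjusted p = 1.88e-100), GDCH by 1.39 ± 0.07 (adjusted p = 2.51e-42) and AT1G11860 by 0.91 ± 0.03 (adjusted p = 6.11e-63). GDCH in phyB was 0.17 ± 0.05 (adjusted p = 0.0119) above WT red, a call lost with DESeq2 (adjusted p = 0.134), without WT red replicate 1 (value 0.14, 0.14) and without phyB replicate 2 (value 0.08, 0.491).

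The 24 genes of the Calvin-Benson cycle, Rubisco and CP12 and the 13 of photorespiration moved in the same directions. In WT red against WT dark, 19 of the 24 rose and 3 fell, with a median log2 change of 1.37, and 12 of the 13 rose and 1 fell, with a median of 1.62. In phyAB against WT red, 19 of the 24 were lower and 4 higher, with a median of -0.86, and all 13 photorespiration genes were lower, with a median of -1.38. Over all genes, 24.1% were called higher and 22.7% lower in WT red against WT dark. In phyAB against WT red those shares were 22.3% and 22.7%. The counts of the 24 and of the 13 that went the other way lay below these shares. In phyAB against WT dark the medians were 0.78 and 0.40. With an assumed coefficient of variation of 0.1, 18 of the 24 and 9 of the 13 were higher in WT red against WT dark, and 17 and 10 were lower in phyAB against WT red, with 0 called the other way. The difference between the pathways was not tested.

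Further genes of the same metabolism were counted in 7 lists of 80 loci, all tested. In WT red against WT dark, 49 of the 80 rose and 14 fell, with a median log2 change of 0.53, compared with 31 and 4 of the 37 and a median of 1.39. In phyAB against WT red, 24 were higher and 40 lower. With an assumed coefficient of variation of 0.1, 39 of the 80 were higher and 1 lower in WT red against WT dark, 0 higher and 28 lower in phyAB against WT red, and 0 were called in phyB against WT red, for any list. The shares of all genes called higher and lower, to which each list's counts compare, were 24.1% and 22.7% in WT red against WT dark, 13.1% and 14.1% in phyB against WT red, 22.3% and 22.7% in phyAB against WT red, 26.1% and 24.1% in phyAB against phyB, 27.5% and 27.1% in phyB against WT dark and 27.2% and 20.9% in phyAB against WT dark. In phyB against WT red, the list of other cycle isoforms, with 3 of 18 higher, and that of other photorespiration enzymes, with 2 of 15 lower, lay near these shares. Other counts lay near them too, among them 4 of 18 other cycle isoforms lower in WT red against WT dark. The same holds for 2 of 8 genes of the triose phosphate and starch list, higher in phyAB against WT red. Genes of the assembly factor list higher in phyAB against phyB, at 4 of 14, were a further case. A count near its share is no result about the list. Genes named for a list are those with the largest changes by a rule stated under the processing.

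Rubisco assembly factors and chaperones fold and assemble the enzyme, but not every gene in the list of that name is one. Of its 14 genes, 13 rose and 0 fell in WT red against WT dark. Against WT red, phyB had 3 higher and 3 lower and phyAB 2 higher and 9 lower. Against phyB, phyAB had 4 higher and 9 lower, and against WT dark phyB had 13 higher and phyAB 11, with 0 lower in either. Of the 14, 11 were higher in WT red against WT dark and 7 lower in phyAB against WT red at the assumed coefficient of variation of 0.1. AT3G48420, a HAD-like hydrolase and not a chaperone, rose by 2.92 ± 0.15 (adjusted p = 1.93e-38) from 2.55 and 1.99 CPM to 17.9 and 16.6 CPM, the largest rise of the list. RbcX1 (AT4G04330), an assembly chaperone of the large subunit, rose by 2.45 ± 0.42 (adjusted p = 1.77e-07) at a low level, from 0.2505 and 0.537 CPM to 2.18 and 2.13 CPM. Cpn60beta2 (AT3G13470), a chaperonin subunit, went against the common order, lower in phyB than in WT red with a log2 difference of -0.45 ± 0.06 (adjusted p = 3.85e-09), at 46.1 and 45.6 CPM in WT red and 34.1 and 33.3 in phyB.

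Thioredoxins of the f type switch on several enzymes of the cycle in the light. Of 10 genes of thioredoxin control, 8 rose and 1 fell in WT red against WT dark. Against WT red, phyB had 4 higher and 1 lower, and phyAB 0 higher and 8 lower. Against phyB, phyAB had 0 higher and 8 lower. Against WT dark, phyB had 7 higher and 1 lower and phyAB 4 and 1. Of the 10, 7 were higher in WT red against WT dark and 7 lower in phyAB against WT red at the assumed coefficient of variation of 0.1. TRXF1 (AT3G02730) rose by 3.48 ± 0.12 (adjusted p = 2.34e-56), from 3.21 and 2.63 CPM to 32.3 and 33.04 CPM, and was at 13.4 and 11.5 CPM in phyAB. TRXF2 (AT5G16400) rose by 2.27 ± 0.10 (adjusted p = 9.3e-44) and in phyAB was -1.23 ± 0.09 (adjusted p = 1.51e-25) against WT red.

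Of 5 photorespiration transporters, 4 rose and 0 fell in red light, led by BOU (AT5G46800), a mitochondrial carrier, at 1.19 ± 0.06 (adjusted p = 9.34e-37), and DiT1 (AT5G12860), the plastid dicarboxylate translocator, at 1.18 ± 0.04 (adjusted p = 5.44e-54). Against WT red, phyB had 2 higher and 0 lower and phyAB 0 higher and 3 lower. Against phyB, phyAB had 1 higher and 3 lower. Against WT dark, phyB had 4 higher and phyAB 5, with 0 lower. Of the 5, 3 were higher in WT red against WT dark and 2 lower in phyAB against WT red at the assumed coefficient of variation of 0.1.

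Of 8 genes for triose phosphate export, starch synthesis and carbonic anhydrase, 6 rose and 1 fell. The counts of higher and lower genes were 4 and 1 in phyB against WT red, 2 and 5 in phyAB against WT red, 3 and 5 in phyAB against phyB, 6 and 2 in phyB against WT dark and 7 and 1 in phyAB against WT dark. Of the 8, 5 were higher and 1 lower in WT red against WT dark and 3 lower in phyAB against WT red at the assumed coefficient of variation of 0.1. CA1 (AT3G01500), a carbonic anhydrase, had 21.4 and 21.4 CPM in WT dark, 382 and 384 in WT red, 561 and 551 in phyB and 129 and 127 in phyAB. Its groups did not overlap and ran in the common order, with a rise of 4.16 ± 0.04 (adjusted p = 6.19e-122) in red light, and its share of the summed RPKM of CA1 and CA2 went from 1.698 ± 0.01599 percent in WT dark to 50.4 ± 0.0865 percent in WT red and 30.05 ± 0.5196 percent in phyAB. CA2 (AT5G14740), named after its values were seen, had 1412 and 1434 CPM in WT dark, 431 and 435 in WT red, 473 and 456 in phyB and 339 and 345 in phyAB. It was highest in WT dark and fell in red light, with a log2 change of -1.72 ± 0.01 (adjusted p = 1.66e-98), the only fall of at least 2-fold among the 80 genes, and both the rise of CA1 and the fall of CA2 enter the share. TPT (AT5G46110), the triose phosphate translocator, rose by 1.83 ± 0.03 (adjusted p = 1.11e-88).

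The 15 other photorespiration enzymes and isoforms were split: 6 rose and 2 fell in red light. The counts of higher and lower genes were 4 and 2 in phyB and 6 and 7 in phyAB against WT red, 5 and 7 in phyAB against phyB, and 6 and 3 in phyB and 10 and 2 in phyAB against WT dark. Of the 15, 6 were higher in WT red against WT dark and 4 lower in phyAB against WT red at the assumed coefficient of variation of 0.1. Besides PGLP1, the largest rise was that of GLU1 (AT5G04140), the ferredoxin-dependent glutamate synthase that recovers ammonia, at 1.84 ± 0.03 (adjusted p = 3.76e-92), from 94.7 and 88.6 CPM to 327 and 332 CPM and 141 and 147 CPM in phyAB.

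Other isoforms of the cycle enzymes, in the cytosol or other plastids, changed less as a list. Of 18, 11 rose and 4 fell in red light, with a median log2 change of 0.18. The counts of higher and lower genes were 3 and 5 in phyB and 6 and 7 in phyAB against WT red, 9 and 6 in phyAB against phyB, and 8 and 7 in phyB and 11 and 2 in phyAB against WT dark. Of the 18, 6 were higher in WT red against WT dark and 4 lower in phyAB against WT red at the assumed coefficient of variation of 0.1. FBA5 (AT4G26530), a further aldolase, had 1 and 3 reads in the WT dark libraries and 195 and 165 in WT red. The ratio of depth-scaled reads was 96.7, with a 95% counting interval (exact, by conditioning on the total) from 37.4 to 357. RPI2 (AT2G01290), a ribose-5-phosphate isomerase, rose by 2.19 ± 0.16 (adjusted p = 1.5e-25), and AT5G64380, an inositol monophosphatase family protein, was higher in phyB than in WT red by 0.49 ± 0.16 (adjusted p = 0.0109).

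The oxidative pentose phosphate pathway makes NADPH from sugar and shares intermediates with the cycle. Apart from 1 gene, its changes stayed below 2-fold in every comparison. Of 10 genes, 1 rose and 6 fell in red light. Against WT red, phyB had 1 higher and 5 lower and phyAB 8 higher and 1 lower. Against phyB, phyAB had 9 higher and 1 lower, and against WT dark phyB had 1 higher and 8 lower and phyAB 7 higher and 0 lower. In phyAB against phyB the median log2 change of the list was 0.46. There 3 were called higher and 1 lower with an assumed coefficient of variation of 0.1. The 6 falls in red light were small, with log2 changes from -0.59 to -0.11, and so were the 8 higher values in phyAB against WT red, from 0.13 to 0.58. None of these was called with an assumed coefficient of variation of 0.1. G6PD1 (AT5G35790), a glucose-6-phosphate dehydrogenase, was the exception. It had 17.6 and 17.02 CPM in WT dark, 62.4 and 65.01 in WT red, 95.6 and 90.2 in phyB and 26.6 and 25.8 in phyAB, the common order of the 37 genes, and its rise in red light was 1.88 ± 0.07 (adjusted p = 8.91e-56). G6PD3 (AT1G24280), a second such gene, fell by 0.59 ± 0.11 on the log2 scale (adjusted p = 1.78e-06).

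**Figure D5:**
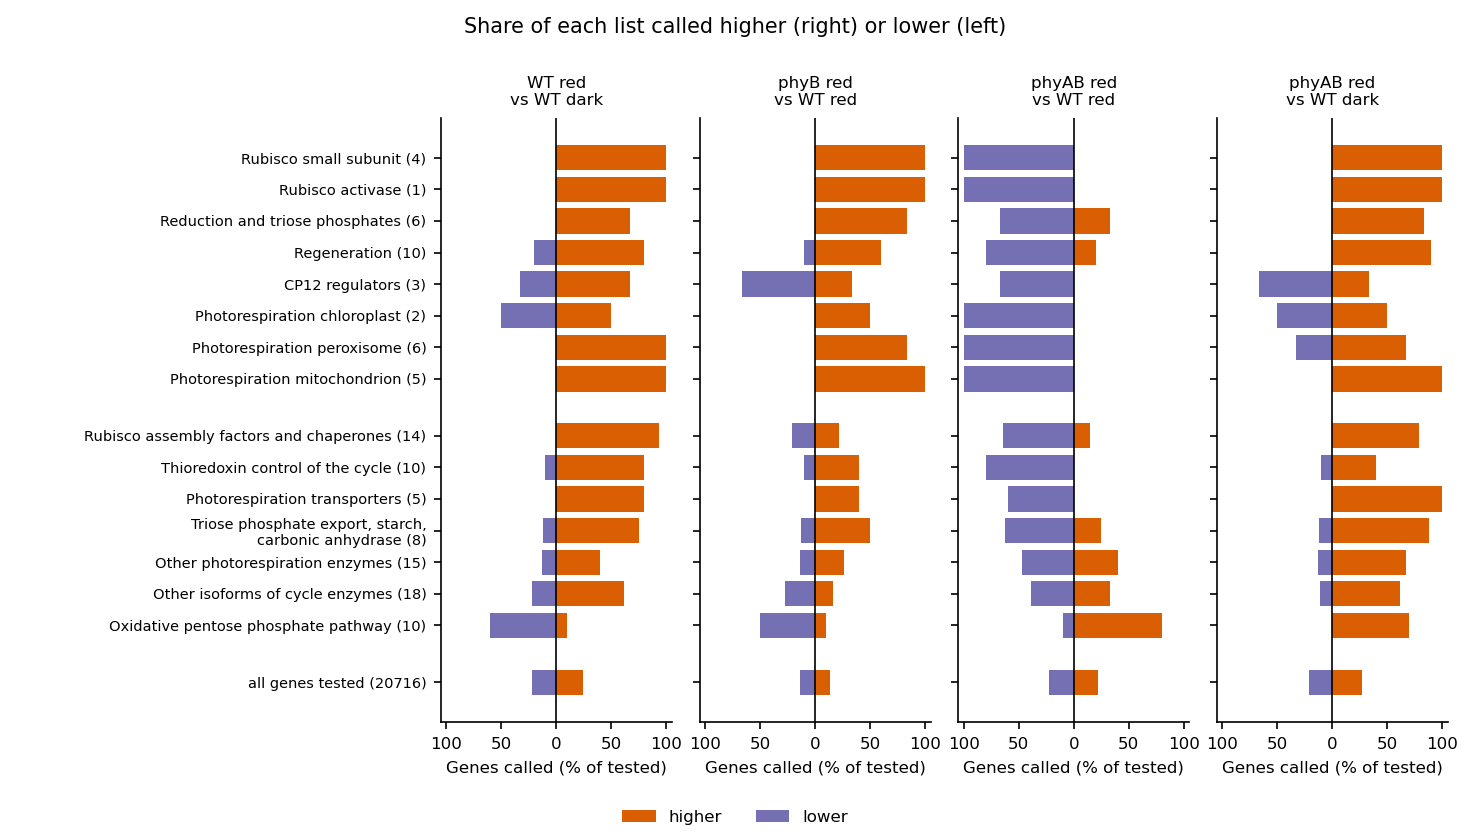
Share of the tested genes of each list called higher (bars to the right) or lower (bars to the left) in 4 comparisons, in percent, with the number of tested genes in brackets; the upper 8 lists make up the 37 genes, the next 7 are the further genes of the same metabolism, and the last bar is all genes tested. Among the lists of the 37 genes, 31 genes rise in WT red against WT dark and 32 are lower in phyAB against WT red, while the oxidative pentose phosphate pathway has 6 of 10 genes lower in WT red and 8 of 10 higher in phyAB, none of them called with an assumed coefficient of variation of 0.1.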

How the data were processed

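RNA from 8 libraries of whole seedlings was sequenced, and the deposited files give a read count and an RPKM value for each of 27416 transcript models. Both columns were made by the authors on the TAIR10 genome, per the submitters' processing notes. The read counts are raw whole numbers per the file headers and values, and the deposited RPKM values divide them by model length and library total: the length they imply was whole within 0.01 for 100.0% of 24548 models with reads. No source used here names the aligner, the counter or the use of strand.

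The 37 loci, the lists and the tests were chosen with earlier results of these data known. Counts were scaled by TMM and filtered with filterByExpr at a minimum count of 10, which kept 20716 genes, and all 8 libraries were fitted with edgeR 4.0.16 (limma 3.58.1, R 4.3.3) by the robust quasi-likelihood method with Benjamini-Hochberg adjustment. The fit was tested on simulated counts with a spread set close to that of these libraries. Such counts cannot show whether that spread is that of separate biological replicates. RPKM was used for levels between genes and shares within families. Alternatives were other scalings, no filter, DESeq2 1.42.0, a fit of only the groups compared, a replicate block, a fit that was not robust, an assumed coefficient of variation of 0.1 and leaving out each library. The assumed coefficient of variation was used on the summed libraries of each group, with a likelihood-ratio test. Replicates differed by more than sampling noise, with a chi-square per gene of 1.35 to 1.48. Any of the 37 loci could be named. Of each further list, the 2 called loci with the largest log2 change in WT red against WT dark were named, with the 1 largest in each mutant comparison.

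Promoters and coding sequences were read from RefSeq's TAIR10.1 with biopython 1.88, which matched 26719 of the models by locus. The promoter of 1 of the 37 genes is not reported here. Proteins were not used here, so likeness between copies is of coding sequences.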

Additional observations from a re-analysis of the deposited data

How the results depend on the processing

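The counts of members called changed by more than 1.5 times only with an assumed coefficient of variation of 0.1: 0 of the 37 genes were then lower in WT red against WT dark, 1 higher and 0 lower in phyB against WT red, 0 higher in phyAB against WT red, 1 higher in phyAB against phyB and 2 lower in phyB against WT dark. That setting ended the call in 68 of 222 pairs of gene and comparison, and the other settings together did so in 21 of 2664. Over all genes it left 3479 calls of 9689 in WT red against WT dark, 625 of 5633 in phyB against WT red, 2740 of 9330 in phyAB against WT red, 3956 of 10392 in phyAB against phyB, 4369 of 11306 in phyB and 2902 of 9978 in phyAB against WT dark. DESeq2 called 3652 in phyB against WT red. Of 84 counts in the 7 further lists, 45 moved by more than 1.5 times with that assumed variation, 9 with DESeq2, 6 with library totals, 1 with upper-quartile scaling and 0 with the other refits of all libraries. Of the 42 counts that each left-out library touches, 6 moved without phyB replicate 2, 5 without WT red replicate 1 and 0 to 2 without any other.

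The median log2 change of the 37 genes kept its direction in every setting run. In phyAB against phyB it was -1.25 with RLE scaling and with DESeq2, -1.206 with upper-quartile scaling, -1.22 with library totals and -1.249 with only those groups in the fit. In WT red against WT dark it was 1.332 with upper-quartile scaling, and with library totals it was 0.305 for phyB against WT red and -0.886 for phyAB against WT red. With library totals, 61.2% of all calls in phyB against WT red were higher, where TMM gave 48.2%, and 61.4% in phyAB against WT red, where TMM gave 49.6%. Leaving out a library gave 1.335 to 1.411 in WT red against WT dark, 0.25 to 0.274 for phyB and -0.968 to -0.877 for phyAB when set against WT red, -1.243 to -1.23 in phyAB against phyB, and 1.619 to 1.731 in phyB and 0.664 to 0.727 in phyAB against WT dark. The differences between replicates 1 and 2 of a group had correlations of -0.004 to 0.027 with those of another group. Such differences are mostly counting noise, so these values cannot show whether the replicate numbers pair the libraries. With the replicate block, counts stayed at 31 and 4 in WT red against WT dark and 4 and 32 in phyAB against WT red, with medians of 1.389 and -0.948, and no count of members changed in any comparison.

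Changes near 0 reversed. In phyB against WT red, AT1G56190 was 0.001 with RLE scaling, and with library totals AT1G56190 was 0.036, TKL1 0.031, EMB3119 0.015 and CAT2 0.018. With library totals G6PD3 was 0.017 in phyAB against WT dark, and with upper-quartile scaling CP12-1 was -0.022 in phyB against WT dark. Leaving out a library gave AT1G56190 from -0.102 to 0.009 in WT red against WT dark and from -0.05 to 0.047 in phyB against WT red, where RPI2 ran from -0.144 to 0.036 and TKL2 from -0.126 to 0.016. Against WT dark, CP12-1 in phyB ran from -0.016 to 0.039, and in phyAB AT5G64380 ran from -0.02 to 0.205, FBA3 from -0.015 to 0.07, G6PD3 from -0.217 to 0.188 and RbcX1 from -0.394 to 0.818. CP12-3 in phyAB against phyB ran from -0.119 to 0.206. The cause was not tested.

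By RPKM in place of reads, the RBCS shares in WT dark, WT red, phyB and phyAB were 63.453%, 43.847%, 38.697% and 46.196% for RBCS1A, 5.528%, 16.320%, 16.616% and 12.189% for RBCS1B, 19.296%, 17.338%, 22.127% and 25.163% for RBCS2B and 11.723%, 22.495%, 22.560% and 16.452% for RBCS3B. With the outermost annotated start, 5 promoters held a G-box in place of 8. Depth limits the genes with few reads, such as FBA5 and RbcX1.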
